A study of Mus musculus with 8 samples.

Results

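Some m6A peaks of mouse embryonic stem cells ran over several exons of a transcript, and those with 4 or more exonic blocks in the control list are described here. They were selected on the block count that the authors' control table gives for each peak. This left 1849 of the 25815 control peaks (7.16%, exact 95% interval 6.85% to 7.48%), and the Dox table held 2508 such peaks among 27612 (9.08%). Because the number of blocks chose them, a greater width or span than that of other peaks follows from the choice and is given as a description. N6-methyladenosine (m6A) was mapped by antibody pull-down (IP) of sonicated messenger RNA, with input RNA alongside, in feeder-free cells grown as spheres in serum-free 2i medium with LIF. All cells, the controls included, carried a doxycycline (Dox) inducible construct for knockdown of Setd2, a histone methyltransferase that places H3K36me3 along transcribed genes. Control cells received no Dox, and knockdown cells received 1 µg/ml for 4 days. No Dox-treated cells without the construct were in the 8 libraries, which formed 4 groups of 2 (IP and input, control and Dox), so effects of Dox and of the knockdown cannot be told apart.

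m6A is written on nuclear messenger RNA by the METTL3-METTL14 complex, mostly at an adenosine followed by a cytosine, and GGAC is among its preferred sites. In mammalian transcripts the mark is known to be concentrated in long internal exons, around stop codons and in the last exon, while short internal exons near splice junctions carry little of it. A peak caller that works along joined exons can report an enriched stretch that crosses splice junctions as 1 peak with several blocks, so the block count tells how many exonic pieces a peak touches, not how many modified sites it holds.

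A subset of the peaks covered the first bases of an annotated transcript, and these are the peaks whose sequence could be read here. Of 1478 with a RefSeq start window, 141 (9.54%) covered all of the first 50 transcribed bases. GGAC, searched on the transcript strand, occurred in 41 of these 141 windows (29.1%, 21.7% to 37.3%), and its reverse complement GTCC in 14.2%. Among all 32851 windows of the table the shares were 18.9% and 17.4%. Windows covered by control peaks of 1, 2 and 3 blocks held GGAC in 24.7%, 23.3% and 22.3%, within the interval for peaks of 4 or more blocks. Covered windows were also richer in G and C, at 66.5% against 56.7% in all windows, and the part of this in the motif share was not tested. The following 6 sites, with GGAC in capitals and 10 bases on either side, are those of lowest FDR among the 23 peaks with such a site and full flanks; they are RefSeq sequence on mm10 (GRCm38.p6), written 5′ to 3′ on the transcript strand.
Kank2, chr9:21798503-21798526, minus strand: ggagcgggcaGGACgcctgggacg
Ddx54, chr5:120613147-120613170, plus strand: cagacgtgtgGGACctggcccgcc
Phf12, chr11:77982822-77982845, plus strand: gcggcagccgGGACgcagacggca
Rassf7, chr7:141215872-141215895, plus strand: cgcggcgctgGGACagcaggttga
Arhgef1, chr7:24904362-24904385, plus strand: gagtggagctGGACgcaaaggcgg
Midn, chr10:80148287-80148310, plus strand: cctcttgccaGGACccatacgcag

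The motif began at base 31 of the Kank2 transcript, 28 of Ddx54, 17 of Phf12, 23 of Rassf7, 27 of Arhgef1 and 26 of Midn. The peaks they belong to ranged from 4 blocks and 481 nt at Arhgef1, a guanine nucleotide exchange factor, to 7 blocks and 1948 nt at Kank2, a cytoskeletal adaptor. Each overlapped 1 Dox peak, which covered between 77.4% (Midn) and 97.7% (Phf12, a PHD finger protein of the SIN3 complex) of the exonic nucleotides. At Rassf7 and Midn the Dox peak left the first 236 and 150 exonic nucleotides of the control peak uncovered. The GGAC shown lies within that uncovered stretch at both genes. A motif in a window is a description and does not place a modified base.

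Every value below comes from 1 pooled peak list per condition. The lists give no read depth and no spread between replicates, so differences between conditions were not tested. Intervals are 95% intervals for counting error alone, with each peak counted as its own observation. All 10 pluripotency markers looked up (among them Pou5f1, Sox2, Nanog and Esrrb) had a peak in both lists. Of 8 fibroblast markers, 2 had a control peak (Col1a1 and Pdgfrb) and 1 had a Dox peak. None of these 18 genes had a control peak of 4 or more blocks. Of all named genes with a control peak, 15.4% had one. With so few markers, finding none is not a result about them. Setd2 itself had 10 control peaks, 5 of them with an overlapping Dox peak, and 6 Dox peaks. Over all control peaks 80.7% had an overlapping Dox peak. Weak peaks were shared less often, and the Setd2 peaks were not compared with others of equal strength.

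Most of the multi-exon peaks only just passed the limit: 1057 had 4 blocks, 373 had 5, 277 had 6 or 7, and 142 had 8 or more. Peaks of 10 or more blocks numbered 56 in control and 107 in Dox. The highest count, 24, was at Crocc, which encodes rootletin, the main protein of the ciliary rootlet. Next came Myh10 with 20 blocks and Myh9 with 17, both heavy chains of non-muscle myosin II, and Myh7b with 18, a heavy chain of striated muscle myosin. Cep164, a protein of the mother centriole's distal appendages, had a peak of 18 blocks. Col18a1, a basement membrane collagen, had one of 17, and Lonp1, a protease of the mitochondrial matrix, and Scrib, a cell polarity scaffold, had 15 each. Cep131, a centriolar satellite protein named after its values were seen, also had 15.

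**Figure D1:**
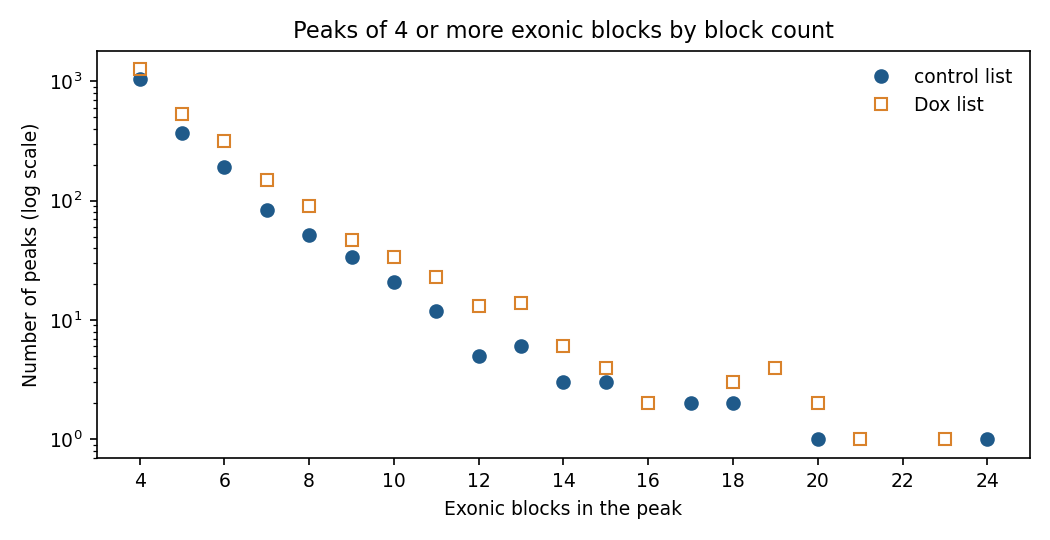
Number of peaks in the control list (filled circles) and the Dox list (open squares) at each count of exonic blocks from 4 upwards, on a log scale; counts with no peak have no symbol. Peaks of 4 blocks are the most frequent in both lists, with 1057 in control and 1265 in Dox, and the control list ends at 24 blocks.

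Blocks inside these peaks were mostly short, and their sizes were not compared with those of annotated exons. The 5544 inner blocks, which lie between the first and the last block of a peak, had a median of 111 nt (quartiles 77 and 153), and 1.93% of them were 400 nt or longer. End blocks, where the peak stops within an exon, were shorter, with a median of 68 nt, and 319 of 3698 (8.63%) were under 10 nt. As a result 308 peaks (16.7%) had at least 1 end block that only touched its exon. All blocks were under 200 nt in 1054 peaks (57.0%). A block of 400 nt or more was present in 238 (12.9%), against 12.7% of control peaks of 1 block. In 372 peaks (20.1%) a single block held at least 50% of the exonic width, as in Numa1, a spindle pole protein, where a block of 3360 nt made up most of a peak of 8 blocks and 4048 nt. In Crocc the longest of 24 blocks had 277 nt, so peaks of similar exonic width were made in very different ways.

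Exonic width had a median of 490 nt (interval 480 to 510, quartiles 351 and 749) and ran from 120 to 4048 nt. Just inside the limit, peaks of 4 blocks had a median of 391 nt, and just outside it, peaks of 3 blocks had 271 nt. The medians were 181 nt for 1 block, 238 nt for 2, and 1153 nt for 8 or more. Together the multi-exon peaks were 7.16% of control peaks and held 14.9% of their exonic nucleotides. Widths fell on a grid: 67.9% lay within 1 nt of a multiple of 30 nt, against 84.9% of all control peaks and 10% on an even spread. The widest after Numa1 were Crocc (3834 nt), Cep250 (3658 nt), which links the centrosomes, Myh7b (3377 nt), Myh10 (3207 nt) and Myh9 (2851 nt).

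Across the genome the same peaks covered far more intron than exon. The median genomic span was 5593 nt (interval 5284 to 5959, quartiles 2852 and 10833), and the exonic part was a median of 9.90% of it. Peaks of 4 blocks had a median span of 4601 nt and peaks of 3 blocks 3024 nt. The 7393 gaps between blocks had a median of 814 nt. A span over 10 kb was found for 505 peaks (27.3%) and one over 100 kb for 34 (1.84%). The longest of all lies at a locus on chromosome 18 (36955120 to 37839929), where 1 peak of 180 or 181 nt is listed under 19 gene identifiers with spans up to 884784 nt and folds of 2.17 to 2.37. Merging peaks that share exonic nucleotides left 1812 separate loci.

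Several peaks of very long span held few exonic nucleotides, while others were wider than the median. Cmss1 spanned 290640 nt of chromosome 16 (57316186 to 57606825) with 421 exonic nucleotides in 4 blocks, and its Dox peak had the same bounds. Chchd3, a protein of the mitochondrial cristae junction complex, spanned 208096 nt with 8 blocks and 779 nt. Mgmt, a DNA repair methyltransferase, spanned 226855 nt (chromosome 7, 136894669 to 137121523) with 352 nt and had no overlapping Dox peak. Vti1a, a vesicle SNARE, and Rsrc1, a splicing-related protein, spanned 232055 and 205241 nt with 240 and 211 nt. The longest named span, 513972 nt, reached beyond both ends of Myom1, the gene whose symbol its location gave, so that name is uncertain.

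At the other end 72 peaks spanned under 1000 nt, and in 55 peaks (2.97%) the exonic part was at least 50% of the span. Leaving aside predicted and Rik genes, the shortest was at Nop56, a core protein of box C/D small nucleolar ribonucleoproteins, with 4 blocks and 240 nt in 476 nt of chromosome 2 (130274430 to 130274905), and the Dox peak had the same bounds. Cpsf1, a subunit of the cleavage and polyadenylation factor, followed with 241 nt in 483 nt, and Kdm6b, a histone H3 lysine 27 demethylase, with 241 nt in 516 nt. Rad9a, of the DNA damage clamp, had 297 nt in 542 nt. The kinase gene Mink1 had 271 nt in 566 nt, and Lrch4 had 271 nt in 557 nt. Thus peaks of equal exonic width differed in genomic span by orders of magnitude.

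**Figure D2:**
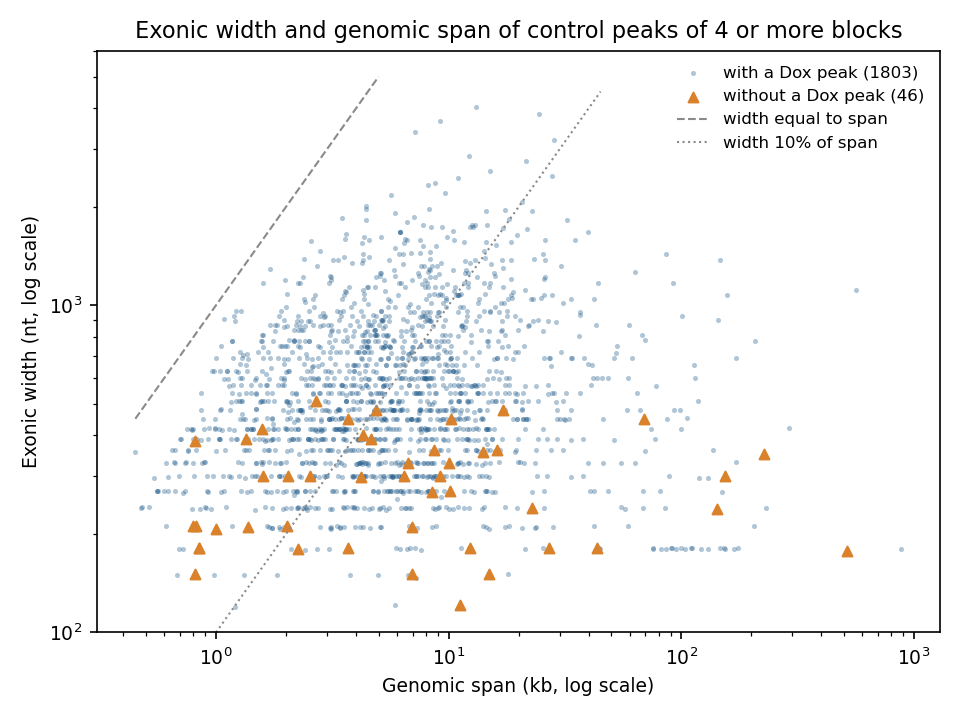
Exonic width (nt, log scale) against genomic span (kb, log scale) of each of the 1849 control peaks of 4 or more blocks; blue points have an overlapping Dox peak (1803) and orange triangles have none (46). The median exonic part is 9.90% of the span, and no peak without a Dox peak is wider than 509 nt.

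The authors' fold (IP over input for a peak) was higher in the multi-exon peaks than in narrower ones, and the order turned at equal exonic width. The median fold was 6.37 (interval 6.15 to 6.56), against 4.54, 4.46 and 4.53 for 1, 2 and 3 blocks, and 5.33 for exactly 4 blocks. From 200 to under 300 nt the median was 3.71 (3.52 to 4.10), against 4.51 (4.42 to 4.64) for 1 block. From 400 to under 600 nt it was 6.15 (5.77 to 6.37), against 7.39 (7.03 to 7.76). At 1000 nt or more the medians were 12.3 and 12.1, with overlapping intervals. A multi-exon peak of a given narrow width therefore had a lower fold than a single-exon peak, and the difference was not seen in the widest class.

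By the authors' FDR these peaks were among the surer calls. The log10 FDR had a median of -66.0, against -8.75 for all control peaks, and 264 peaks (14.3%) had an FDR listed as 0 (log10 of -Inf), against 3.44% of all. The authors' stricter list held 1770 of the 1849 (95.7%), and 65.5% of all control peaks. The highest fold, 133, was at Ano9, a member of the anoctamin family, in a peak of 4 blocks and 329 nt that starts at the 5' end of the gene. Dek, a chromatin protein, followed with 68.3, Kash5, a nuclear envelope protein of meiotic cells, with 57.8, the kinase gene Lmtk3 with 50.4, the spectrin gene Sptbn4 with 48.0 and Commd7 with 46.7. High folds of weak peaks are coarse: 42 multi-exon peaks had a log10 FDR above -8 and a fold of 8 to 40. Of these, 25 lay on a multiple of 1.23 within a tolerance of up to 0.05, where an even spread would give 7.07%. The step of 1.23 was chosen as the best fit to weak control peaks that include these 42, so the excess is a description. Among the peaks tied at an FDR listed as 0, the highest folds in named genes were at Suds3, a SIN3 corepressor subunit (fold 39.8), Ranbp1, a regulator of the Ran GTPase (30.2), Map7d1, a microtubule-binding protein (29.7), Clasrp (29.4), Cactin (28.9) and Kazn (28.3).

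Placed along gene intervals of at least 3000 nt, multi-exon peaks were centred between the ends. Of 1757 that could be placed, 42 (2.39%, 1.73% to 3.22%) had their exonic midpoint within 500 nt of the 5' end. For 1, 2 and 3 blocks the shares were 13.3%, 18.2% and 8.26%. Within 1000 nt of the 3' end lay 48 (2.73%, 2.02% to 3.61%), against 19.2%, 8.23% and 5.69%. A wide peak cannot be centred close to an end, and the edges gave another picture. The 5' edge lay within 500 nt of the gene's 5' end in 349 peaks (19.9%), against 14.4%, 24.4% and 19.1% for 1, 2 and 3 blocks, and the 3' edge within 1000 nt of the 3' end in 225 (12.8%), against 21.3%, 11.4% and 10.8%. With the gene cut into 3 equal parts, 20.1% of midpoints fell in the first part, 32.2% in the second and 47.7% in the last.

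**Figure D3:**
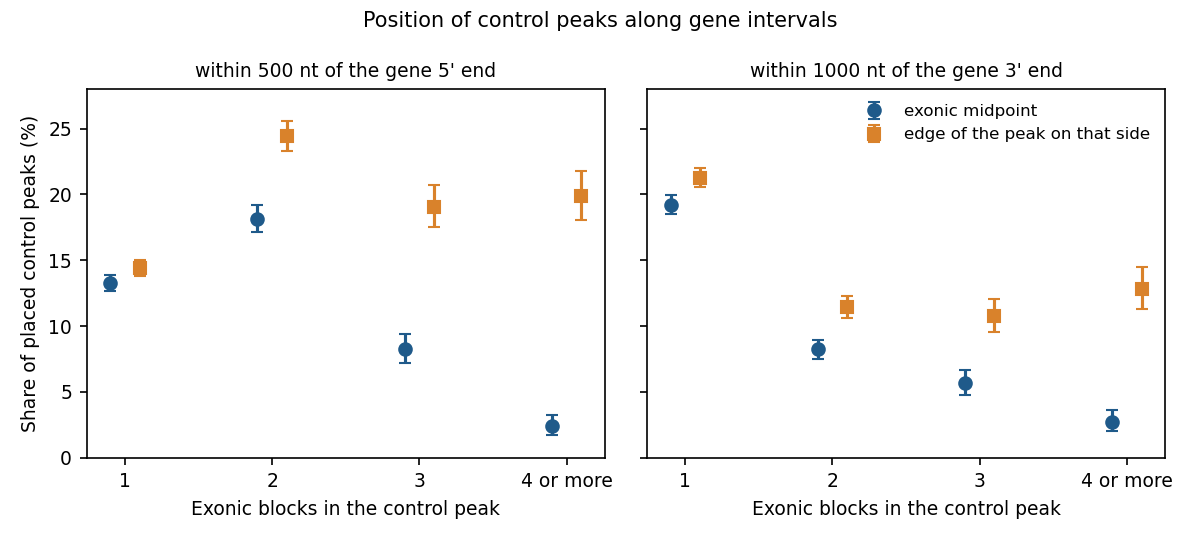
Share of placed control peaks (%) with the exonic midpoint (circles) or the edge on that side (squares) within 500 nt of the gene's 5' end (left) and within 1000 nt of its 3' end (right), by number of exonic blocks; bars are exact 95% intervals. Midpoints of peaks of 4 or more blocks are at 2.39% and 2.73%, the lowest of the 4 classes in both panels, while their 5' edges (19.9%) are within the range of the other classes.

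Peaks that began at a gene's start had the higher folds. The median fold was 8.62 in the 349 with the 5' edge near the start, 6.55 in the 225 that reached the gene's end, and 6.03 in the 1226 with neither. Their median exonic widths differed too, at 569, 643 and 480 nt. Folds rise with width, and these positions were not compared at equal width. Some peaks ran from end to end: 43 had both edges near the ends, and 48 of the 1751 within their gene spanned at least 90% of it, with a median of 18.7% over all. Cactin, a splicing-associated protein, had 9 blocks over 1976 nt that began 90 nt after its 5' end and stopped 658 nt before its 3' end. Slc9a3r1, a scaffold of membrane proteins, had 6 blocks over 1303 nt from its first base to 619 nt before its end, and Slc9a3r2, its paralogue, 8 blocks over 1693 nt to 565 nt before its end. Pkm, the pyruvate kinase gene, fell short of both limits, with 9 blocks over 1375 nt and 18601 nt of chromosome 9 (59656487 to 59675087). Its peak stopped 4285 nt before the gene's end and spanned 81.6% of the gene. A further 7 peaks centred in their named gene reached more than 500 nt beyond its interval, and their names are uncertain.

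The peaks lay on 1541 of the 11650 gene identifiers with a control peak (13.2%), and 251 identifiers had at least 2. By symbol, 1479 of 9613 named genes with a control peak (15.4%) had one. Pcnt, the centrosome scaffold pericentrin, had 4 with 5 to 9 blocks, and Sptan1, the alpha chain of spectrin, 4 with 4 to 10 blocks. Arhgef1 and Mical3, a flavoprotein monooxygenase acting on the cytoskeleton, also had 4 each. Haus5, of the augmin complex, had 4 by location, but not all lay within its interval, so some may belong to a neighbouring or readthrough transcript.

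Among groups of genes, shares above and below the 15.4% of all named genes were found. In all lists the shares are per gene, without regard to how many control peaks or exons a gene has. Counted by control peaks, 1784 of 23149 were multi-exon in all named genes. It was 23 of 142 in RNA helicases and 40 of 376 in chromatin remodelers and histone modifiers. RNA helicases had a multi-exon peak in 18 of 52 genes with a control peak (34.6%, 21.97% to 49.1%), with 23 peaks of a median fold of 8.25. Ddx54, a nucleolar helicase, had a second peak with a fold of 16.6, Ddx23, of the spliceosome, 15.2, and Ddx27, of ribosome assembly, 14.5. Chromatin remodelers and histone modifiers had one in 29 of 87 (33.3%, 23.6% to 44.3%). In that list Chd4, the NuRD remodeler, had a fold of 20.9, Kdm5c, a histone H3 lysine 4 demethylase, 20.5 over 1381 nt, and Dnmt1, the maintenance DNA methyltransferase, 14.2 over 12 blocks that together held 778 nt.

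Genes of translation and splicing were also above. Translation factors and tRNA synthetases had a multi-exon peak in 24 of 81 genes (29.6%, 19.99% to 40.8%), among them Eif3b (fold 21.7), a core subunit of initiation factor 3, Aars2 (15.6), the mitochondrial alanyl-tRNA synthetase, and Eif2b4 (9.73), of the exchange factor for eIF2. For splicing factors and hnRNP proteins the count was 18 of 69 (26.1%, 16.3% to 38.1%). Hnrnpul1 and Hnrnpul2 had folds of 22.2 and 21.1, and Sf3b2, of the U2 particle, had 9 blocks at 11.7. Kinesins, dyneins and tubulins had 11 of 46 (23.9%, 12.6% to 38.8%), an interval that includes 15.4%, with 3 peaks in Dync1h1, the heavy chain of cytoplasmic dynein.

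Zinc finger and solute carrier genes lay below, as did those of oxidative phosphorylation. Zinc finger (Zfp) genes had a multi-exon peak in 12 of 221 (5.43%, 2.84% to 9.29%), among them Zfp598, a sensor of collided ribosomes, with 6 blocks over 1315 nt. Solute carriers had 6 of 160 (3.75%, 1.39% to 7.98%), of which Slc9a3r1 and Slc9a3r2 are scaffolds caught by their symbols. Slc38a10, an amino acid transporter, had a fold of 15.5. For oxidative phosphorylation it was 3 of 57 (5.26%, 1.10% to 14.6%). Ribosomal protein genes had 5 of 60 (8.33%, 2.76% to 18.4%), proteasome subunits 3 of 32 (1.98% to 25.02%) and chaperones 6 of 55 (4.11% to 22.2%), with intervals that include 15.4%. Ribosomal protein peaks were of low fold, with 4.41 at Rpl18, 4.06 at Rps24 and 3.96 at Rpl19, and such genes have many processed copies, so their reads are uncertain.

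Stem cell and m6A genes did not stand apart from all genes. Pluripotency regulators had a multi-exon peak in 5 of 32 (15.6%, 5.28% to 32.8%), with 2 peaks in Mybl2, a cell cycle transcription factor (folds 20.8 and 2.95), and 1 in Trim71, an RNA-binding ubiquitin ligase (10.7). Among m6A writers, readers and erasers 3 of 18 had one (16.7%, 3.58% to 41.4%): the demethylase Alkbh5 with a fold of 4.77 and the binding proteins Igf2bp1 and Igf2bp2 with 4.53 and 3.26. DNA replication and repair genes had 11 of 60 (18.3%, 9.52% to 30.4%), nuclear pore and transport genes 6 of 33 (6.98% to 35.5%), and glycolysis 4 of 14 (8.39% to 58.1%). These intervals all include 15.4%.

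Multi-exon control peaks were nearly always met by a peak in the Dox list. An overlap of at least 1 nt, exon to exon and strand to strand, was found for 1803 of 1849 (97.5%, 96.7% to 98.2%), against 80.7% of all control peaks. The shares were 76.8%, 80.9% and 91.0% for 1, 2 and 3 blocks, and 96.8%, 97.9%, 98.9% and 99.3% for 4, 5, 6 or 7, and 8 or more. Strength and width rise with block count, so the shares were also read within classes of both. At a log10 FDR between -20 and -5 the multi-exon share was 94.1% (91.1% to 96.3%), against 85.2% (84.2% to 86.3%), 82.8% and 87.1% for 1, 2 and 3 blocks. At -50 or less all 1030 were shared, against 99.4% of 1-block peaks, and above -5 the share was 70.7% (59.6% to 80.3%), against 59.4% for 1 block and 68.7% for 3.

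At equal exonic width the shares lay close together from 300 nt upwards. From 300 to under 400 nt the share was 95.6% (92.9% to 97.5%), and for 1, 2 and 3 blocks it was 95.3%, 94.9% and 95.8%. From 200 to under 300 nt it was 95.2% (91.6% to 97.6%) against 86.8%, 86.2% and 90.9%. All 462 of 600 to under 1000 nt and all 222 of 1000 nt or more were shared, while 2 peaks of 1 block and 2 peaks of 2 blocks at 600 nt or more were not. The lowest multi-exon share, 80.0% (67.7% to 89.2%), was found in the 60 peaks of 100 to under 200 nt. In that class the shares for 1, 2 and 3 blocks were 66.4%, 65.8% and 73.5%. Of the 60, 19 are the repeated peak on chromosome 18, all of them shared, which raises the 80.0%.

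**Figure D4:**
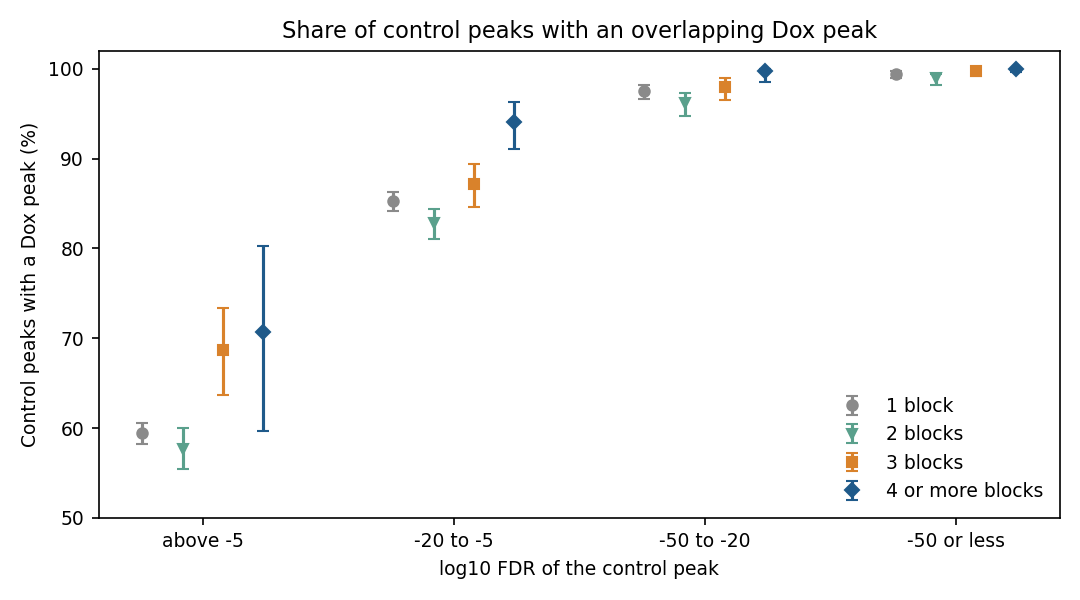
Share of control peaks (%) with an overlapping Dox peak in 4 classes of log10 FDR, from weakest on the left to strongest on the right, for peaks of 1, 2, 3 and 4 or more blocks; bars are exact 95% intervals and the axis starts at 50%. The class of 4 or more blocks rises from 70.7% to 100%, and it lies above the other classes between -20 and -5.

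In most shared peaks the Dox list retraced the control peak over nearly all of its exons. Of the 1803, 927 (51.4%, 49.1% to 53.7%) were wholly covered by Dox peaks. Shared peaks of 2 and 3 blocks were wholly covered more often, in 53.96% and 55.44%. At least 50% of the exonic nucleotides were covered in 1742 (96.6%), against 93.32% and 95.18% for 2 and 3 blocks. Over all 1803 peaks 91.7% of nucleotides were covered, against 88.07% and 89.88%. A single Dox peak met 1597 of the 1803, 151 met 2 and 55 met 3 or more. The Dox peak with the largest overlap had 4 or more blocks itself in 1517 (84.1%). It had the same number of blocks in 860, more in 531 and fewer in 412. In 138 (7.65%) the bounds were identical, against 9.35% and 9.81% of shared peaks of 2 and 3 blocks. At Myh9 (chromosome 15, 77765653 to 77777900) all 17 blocks were covered by a Dox peak of 18, at Myh10 all 20 by one of 21, and at Lonp1 all 15 by one of 15. The 24 blocks of Crocc (chromosome 4, 141029060 to 141053529) were met by 2 Dox peaks, the larger with 13 blocks, that together covered 94.5%.

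**Figure D5:**
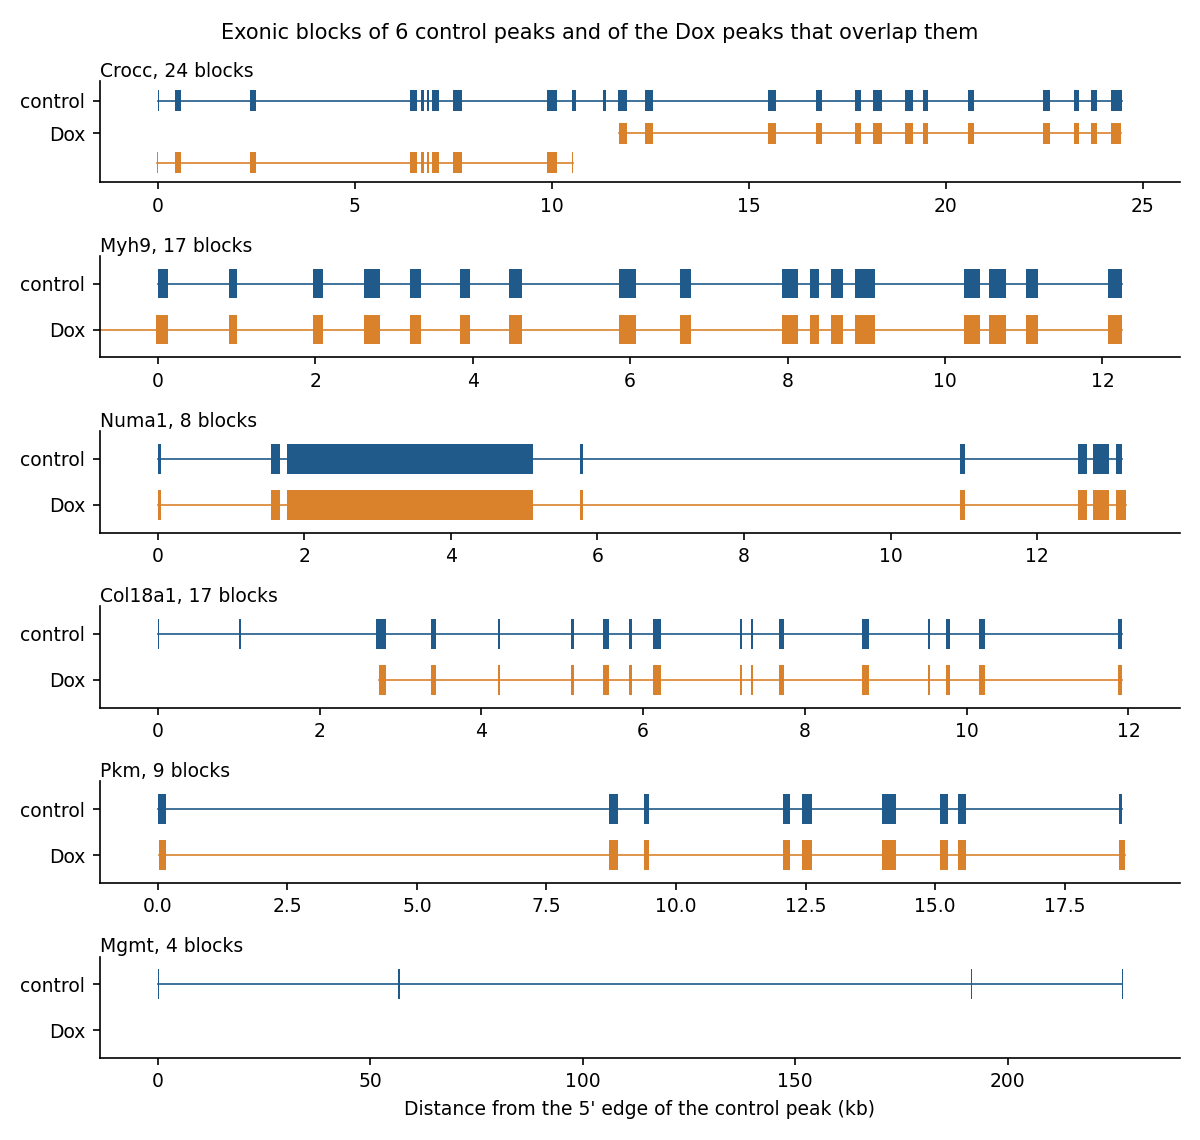
Exonic blocks (boxes, to scale unless too narrow to draw) and the introns between them (lines) of 6 control peaks (blue) and of the Dox peaks that overlap them (orange), as distance from the 5' edge of the control peak in kb; each panel has its own scale, and Dox peaks are cut off where they leave the panel. Crocc is met by 2 Dox peaks, Myh9 and Numa1 are wholly covered, the 5'-most blocks of Col18a1 are not covered, and Mgmt has no Dox peak.

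Where the cover was incomplete, it lacked the 5' side more often than the 3' side. At least 30 nt were uncovered at the 5' side of 556 shared peaks (30.8%, 28.7% to 33.0%) and at the 3' side of 328 (18.2%, 16.4% to 20.1%). Peaks of 3 blocks had 30.5% and 18.3%, and peaks of 2 blocks 31.0% and 18.6%, so narrower peaks showed it too. In all 46306 nt were missing at 5' sides, 27134 nt at 3' sides and 17967 nt in between. The asymmetry was larger at gene starts. Of 385 shared peaks whose 5' edge lay less than 1000 nt from the gene's 5' end, 46.2% (41.2% to 51.4%) lacked 30 nt or more at the 5' side and 16.9% at the 3' side, and 41.0% were wholly covered. In the 1330 further along the gene the shares were 27.2% (24.8% to 29.7%), 19.1% and 54.7%.

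Read from the Dox list, 2351 of its 2508 multi-exon peaks (93.7%, 92.7% to 94.7%) overlapped a control peak, against 70.9% of all Dox peaks. In 1481 the overlap included a control peak of 4 or more blocks, and in 870 it was with control peaks of 1 to 3 blocks only. Several control peaks lay under 594 of the 2508, against 2258 of all 27612 Dox peaks. At Pcnt, for example, 3 of 4 control peaks, with 21 blocks in all, fell under 1 Dox peak of 19, and at Sptan1 the peaks of 10 and 6 blocks fell under another of 19. The reverse was rarer, with 206 of the 1849 control peaks (11.1%) meeting several Dox peaks, against 4.93% of all control peaks. These 206 include the copies of the repeated peak on chromosome 18. Leaving aside the repeated peak on chromosome 18, the highest number met was 4, among others at Serf2, Ints5, Slc39a7 and Haus5, whose Dox peaks are partly listed under more than 1 overlapping gene identifier.

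Without a Dox peak were 46 multi-exon peaks (2.49%), and most of these were weak. Their log10 FDR had a median of -4.67, 24 lay above -5, and 1 was at or below -20. That 1 was in Arhgap9, a GTPase-activating protein, with 4 blocks, 386 nt, log10 FDR -23.6 and fold 8.37 (chromosome 10, 127326361 to 127327172). Next were Zbtb17, the MYC partner MIZ1 (-16.9), the integrin gene Itgb5 (-15.9), Commd7 (-12.6), Ttc23 (-12.5) and Kdm8 (-12.2). Of the 46, 34 had 4 blocks, 26 were in the authors' stricter list, and 35 were in genes with a Dox peak elsewhere. A peak in Setd2 was among them, with 4 blocks, 181 nt, log10 FDR -4.54 and fold 6.64 (chromosome 9, 110605088 to 110617460). Another was in Sumo2, which encodes a small ubiquitin-like modifier and has processed copies, with a fold of 1.95. Setd2 and Sumo2 are outside the rule for named genes and were chosen after their values were seen.

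Extracellular matrix genes had the highest share with a multi-exon peak of the 17 lists and the lowest share of those peaks met in Dox. They had a multi-exon peak in 17 of 36 genes with a control peak (47.2%, 30.4% to 64.5%), against 15.4% of all named genes, and 30 such peaks in all. The list was drawn by symbol, so it is not the whole matrix and not matrix alone. It takes in integrin genes and Itgb1bp1, whose product is not a matrix protein. It leaves out Hspg2, whose multi-exon peaks of 6 and 4 blocks each had a Dox peak. Of the 30, 22 had a Dox peak (73.3%, 54.1% to 87.7%), against 1718 of 1754 in all other named genes (97.9%, 97.2% to 98.6%). The 8 without one were 3 in Col11a1 and 2 in Col2a1, both fibrillar collagens, and 1 each in Col5a2, Col9a3 and Itgb5. The matrix peaks were also weaker: the median log10 FDR of the 30 was -9.67, against -68.6 in the others. At -20 or less all 9 matrix peaks were shared, between -20 and -5 it was 11 of 13 against 295 of 314, and above -5 it was 2 of 8 (3.19% to 65.1%) against 55 of 71 (77.5%, 66.0% to 86.5%). Among peaks of 1 to 3 blocks, 55 of 87 were shared in matrix genes (63.2%), against 80.3% in the other genes. Within these 87 it was 14 of 36 in collagen genes and 41 of 51 in the rest of the list (80.4%).

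Collagen peaks were built of shorter blocks than the other multi-exon peaks. Collagen triple helices are encoded by many small exons of related length, and 22 multi-exon peaks on 10 collagen genes held 112 inner blocks with a median of 54 nt. Of these 46 (41.1%) were exactly 54 nt, and 87 (77.7%) were a multiple of 9 nt. In the other multi-exon peaks 0.571% of 5432 inner blocks had 54 nt, and 13.3% were a multiple of 9. In the 3 weak peaks of Col11a1 (chromosome 3) 7, 4 and 6 blocks held 330, 151 and 361 nt, and the gene's 5 control peaks were not matched by any Dox peak. At Col5a1 all 4 peaks, with 7 to 13 blocks and log10 FDRs between -9.81 and -6.21, were met by a Dox peak that covered 22.5% to 41.8% of them. Col18a1 had the strongest collagen peaks, with 17, 10 and 6 blocks, and Dox peaks covered 89.98%, 100% and 78.6%. Among the other genes of this list, both Lamc1 peaks, the Lama1 peak and the peak of Sparc, a collagen-binding glycoprotein, were wholly covered. Dox peaks covered 84.6% of the Lama5 peak, 86.7% of that in the integrin gene Itga6 and 66.8% of that in Itgb1bp1, an integrin-binding protein, and none of the Itgb5 peak.

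The peak lists hold no RNA levels, so whether collagen RNA differed between the conditions was not tested. In bulk RNA, fewer cells expressing collagens and less collagen RNA per cell could not be told apart either. Of the fibroblast markers looked up, Col1a2, Col3a1, Dcn, Lum, Thy1 and Postn had no control peak, and their part in the collagen result was not tested. Of the 19 collagen peaks above a log10 FDR of -20, 7 had a fold on a multiple of 1.23, the step fitted above. No share for an even spread was computed for them.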

How the data were processed

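m6A-seq was done on 8 libraries: IP and input RNA, without and with Dox, 2 replicates each. Reads were handled with TopHat2 2.1.1 and FastQC 0.11.5 on build mm10, per the submitters' processing notes. The labels name exomePeak for the tables, with no version, settings or annotation in the sources used here. The labels tie each table to all 4 libraries of a condition, so replicates are pooled and no test was made. Nothing in the labels says whether replicates were separate cultures. The deposited tables give for each peak a p-value (in a column headed score), the log10 of p and of FDR (a score without fixed range here, since -Inf occurs), and a fold ratio of IP over input, per the file headers, without the scaling of IP to input. The authors' stricter lists were checked to be those peaks of the table whose p is 1e-05 or lower and whose fold is 2 or higher.

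Multi-exon peaks were the control rows with a block count of at least 4. Exonic width is the sum of block sizes, and span is end minus start. A peak was shared when 1 or more of its exonic nucleotides lay in an exonic block of a Dox peak on its strand (bedtools 2.31.1). Identifiers were named after the RefSeq protein-coding gene (GRCm38.p6) holding at least 50% of their peak midpoints, which named 1784 of the 1849 peaks; overlapping and readthrough genes can be misnamed. Coordinates are 1-based mm10. Percentages have exact Clopper-Pearson 95% intervals, and medians order-statistic intervals. On simulated data, 300 peaks per list, 0 overlap pairs were wrong.

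The peaks, the 17 gene lists and the tests were chosen with earlier results of these data known. Named genes follow a rule: the 8 with most blocks, the 6 widest, longest, shortest, of highest fold, of lowest FDR and without a Dox peak of lowest FDR, the 4 with most Dox peaks, up to 3 per list by lowest FDR, and the 6 with most such peaks, of which 1 is not reported here, with ties in FDR ordered by fold and predicted and Rik genes left out; collagen genes beyond these were named after their values were seen. A motif search within whole peaks and exon annotation were not done, as no genome was used here. Python 3.11.15, numpy 2.4.6, pandas 2.3.3, scipy 1.17.1 and matplotlib 3.10.9 were used.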

Additional observations from a re-analysis of the deposited data

How the results depend on the processing

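No paired analysis was possible because both replicates are pooled in every peak list. Of 34 alternatives over 8 results, 21 stayed within the interval of the reported value (for counts, within 1.5 times) and 13 moved. A turn of direction was not scored. The share of multi-exon peaks with a Dox peak (97.5%) was 90.4% with the authors' stricter lists in both conditions, 93.0% when both lists were limited to a log10 FDR of at most -5, 93.7% with 3 or more blocks and 98.5% with 5 or more. It was 65.9% at a fold of at least 4 in both lists. The median fold of all peaks was 4.62 in control and 3.51 in Dox. Shares of all control peaks were not computed under these alternatives, so the values cannot be set against the 80.7% of all control peaks. The median exonic width was 537 nt with blocks under 10 nt not counted, and the median fold 7.57 with 5 or more blocks. The share at gene 5' ends was 4.78% within 1000 nt, 0.626% within 250 nt and 19.9% by the 5' edge, and the share at 3' ends 0.740% within 500 nt, 9.51% within 2000 nt and 12.8% by the 3' edge. Choosing 1 peak per gene, 1 per group of peaks that share exonic nucleotides (97.6%) or leaving out matrix genes (97.9%), both added after seeing the data, did not move the shared share. Without read counts, depth behind a missing Dox peak is unknown, and sharing a call says nothing of a change in its strength.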
